A study of Homo sapiens with 4 samples.

Results

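Histone genes are described here in cells labelled as PC3, which is a line derived from prostate cancer that had spread to bone. They were taken as human genes whose current or former symbol has a prefix of the H1, H2A, H2B, H3 or H4 families, without pseudogenes. Histone genes under other symbols are not included. Each had a probe set of its own in the deposited table, and the probe set with the highest mean stood for the gene. The rule found 69 histone genes among 18417 genes measured. A further 17 protein-coding histone genes shared all their probe sets with other symbols and are described apart, and 2 had no probe set. All 4 arrays held total RNA of snap-frozen cells, labelled as PC3 and kept in DMEM/F12 with serum and antibiotics. The 2 PC3-SCR arrays are of cells with the empty vector pBABE, which the labels also call a control vector, and the 2 PC3-PDEF arrays are of cells that overexpress PDEF, the ETS transcription factor encoded by SPDEF. The study compared them to find what PDEF expression changes in prostate cancer cells. Whether arrays of the same group came from separate cultures is not stated, so p-values reflect only the spread between the arrays at hand, and that spread may be technical.

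Histones are the proteins around which DNA is wound: H2A, H2B, H3 and H4 form the core of the nucleosome, and H1 binds the linker DNA between nucleosomes. Most are encoded by replication-dependent genes, which lie in clusters, have no introns, are transcribed mainly in S phase and usually give mRNAs that end in a stem-loop in place of a poly(A) tail. Replacement variants are encoded by solitary genes, are made throughout the cell cycle and exchange into chromatin outside of replication.

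The PC3-PDEF arrays go against the PC3 label in a way that bears on each value. PC3 is known to lack CTNNA1, the alpha-catenin gene, and STAT3 through homozygous deletion. CTNNA1 had log2 signals of 4.77 and 4.07 in PC3-SCR and of 9.76 and 9.86 in PC3-PDEF, a log2 fold change of 5.39 (adjusted p = 9.02e-06 from limma), and STAT3 differed by 4.45 (adjusted p = 2.66e-06 from limma). SPDEF itself had 5.99 and 6.06 in PC3-SCR and 6.85 and 6.73 in PC3-PDEF, and rose by 0.77 (adjusted p = 0.000563 from limma). Its PC3-SCR signals were just above the background gauge described below, so the size of its rise is not exact. An effect of PDEF and another difference between the cells cannot be told apart in this design, nor can fewer cells of a type and less RNA per cell. Of 14 markers of stromal, endothelial and leukocyte cells, none rose and 6 fell by limma, while 26.7% of all genes rose and 24.0% fell. Of these markers, 12 were not above the background gauge in both arrays of either group. That gauge was the highest signal among 341 olfactory receptor genes, 5.65 to 6.01 by array. Only CD68 and COL1A1 passed it, in both groups (log2 fold changes of -2.18 and -1.34), while LUM (-1.35) and PECAM1 (-0.68) fell at signals near background. Among the epithelial markers, KRT8 fell by 0.64, KRT18 was not called (-0.25) and EPCAM fell by 1.69, with 7.81 and 7.74 in PC3-SCR against 5.65 and 6.53 in PC3-PDEF. EPCAM lost its call without either PC3-SCR array, LUM without either PC3-PDEF array, and PECAM1 without PC3-SCR replicate 2 and without either PC3-PDEF array.

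The upstream sequences of the histone genes show how the families are built and which partners share a promoter. The regions below belong to the 3 H2B genes with the largest falls at a signal above background in PC3-SCR, and to the 2 H4 genes with the largest changes in either direction. For the H2B genes, the whole interval between the start site and that of the divergent H2A partner is given, and for H4 genes the last stretch before the start. The sequences are from RefSeq on GRCh38.p14 and are written 5′ to 3′ on the gene's own strand, ending at the base before its start site. H2BC14 lies on the plus strand (chr6:27814778-27815021, partner H2AC14), H2BC8 on the minus strand (chr6:26216689-26216920, partner H2AC8) and H2BC21 on the minus strand (chr1:149886683-149886917, partner H2AC20). H4C4 (chr6:26189113-26189262) and H4C8 (chr6:26285535-26285684) are on the minus strand. Capitals mark 4 motifs on either strand: the octamer ATTTGCAT, bound by Oct1, CCAAT, which reads ATTGG on the other strand, the TATA sequence TATAAA, which reads TTTATA there, and the core of a conserved H4 element, GGTCCG, which reads CGGACC there.
H2BC14: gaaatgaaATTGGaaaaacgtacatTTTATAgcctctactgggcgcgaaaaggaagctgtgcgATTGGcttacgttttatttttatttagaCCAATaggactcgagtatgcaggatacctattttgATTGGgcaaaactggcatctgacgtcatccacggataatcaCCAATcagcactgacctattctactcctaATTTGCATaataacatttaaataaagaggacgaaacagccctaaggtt
H2BC8: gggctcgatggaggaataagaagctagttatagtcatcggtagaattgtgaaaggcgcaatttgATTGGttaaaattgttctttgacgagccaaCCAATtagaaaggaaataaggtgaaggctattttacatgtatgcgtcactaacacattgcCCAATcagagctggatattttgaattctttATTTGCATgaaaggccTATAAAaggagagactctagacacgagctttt
H2BC21: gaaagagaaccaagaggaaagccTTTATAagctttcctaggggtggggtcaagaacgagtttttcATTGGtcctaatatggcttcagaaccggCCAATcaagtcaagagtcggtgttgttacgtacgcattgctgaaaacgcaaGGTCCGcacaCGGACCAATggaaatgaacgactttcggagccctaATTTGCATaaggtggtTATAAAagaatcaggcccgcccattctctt
H4C4: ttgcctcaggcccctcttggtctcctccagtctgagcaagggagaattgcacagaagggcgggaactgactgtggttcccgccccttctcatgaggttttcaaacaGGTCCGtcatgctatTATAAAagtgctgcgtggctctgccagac
H4C8: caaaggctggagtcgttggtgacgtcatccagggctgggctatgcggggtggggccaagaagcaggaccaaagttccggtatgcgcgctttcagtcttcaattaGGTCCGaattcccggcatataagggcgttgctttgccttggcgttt

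The octamer stood 48, 48 and 46 bases before the start of H2BC14, H2BC8 and H2BC21. A TATA sequence on the gene's own strand followed it at 32 bases in H2BC8 and 30 bases in H2BC21, whereas in H2BC14 these letters were found only on the opposite strand, on the H2AC14 side. The CGGACC of H2BC21 overlaps a CCAAT. H4C4 and H4C8 held GGTCCG at 44 and 46 bases, and of these only H4C4 held TATAAA, at 29. Thus the octamer stood at a similar place in the 3 H2B genes and GGTCCG in both H4 genes, of which H4C4 was higher and H4C8 lower in PC3-PDEF, while TATAAA near the start was found in some of them only.

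Promoters were found for 63 of the 69 genes, and the 250 bases before the first listed start were searched on both strands. The octamer was in 13 of 16 H2B and 10 of 13 H2A promoters and in none of the replication-dependent H1, H3 and H4 promoters, compared with 1.66% of 27305 promoters. GGTCCG was in 10 of 11 H4 promoters and in 9.33% of all. CCAAT was in every replication-dependent H1, H2A, H2B and H3 promoter and in 3 of 11 H4 promoters, against 33.0% of all. TATAAA was in 35 of 53 replication-dependent promoters and 11.1% of all. Among H2B genes, the octamer was in 6 of the 7 that fell, all 7 that were not called and neither of the 2 that rose. These matches describe letters in a window and are not shown to be bound sites. Starts of divergent H2A and H2B partners lie 215 to 248 bases apart, so a motif between them is counted for both partners. The H2A and H2B counts are thus not separate. In the printed pairs the octamer stands 46 or 48 bases before the H2B start.

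Histone genes moved in both directions. At an adjusted p under 0.05 from limma, 26 of the 69 were higher in PC3-PDEF, 19 were lower and 24 were not called, so that 65.2% were called. Of all genes, 50.7% were called, 26.7% higher and 24.0% lower. The median log2 fold change of the histone genes was -0.005, and that of all genes -0.05. Changes of at least 2-fold were found for 4 histone genes upward and 9 downward, whereas 14.7% of all genes made such changes, 8.67% upward and 6.07% downward. No overlap between the groups' arrays was found for 55 of the 69 genes, 30 of them higher and 25 lower in PC3-PDEF, and for 74.7% of all genes. Signals lay above the background gauge in both arrays of at least 1 group for 45 of the 69 genes. The other 24 were not above it in both arrays of either group, and the size of a difference between such signals is not exact. H4C14 and H4C15 had identical values and are 1 measurement counted under both names. With any 1 array left out, fewer histone genes were called, and fewer of all genes were called as well.

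**Figure D1:**
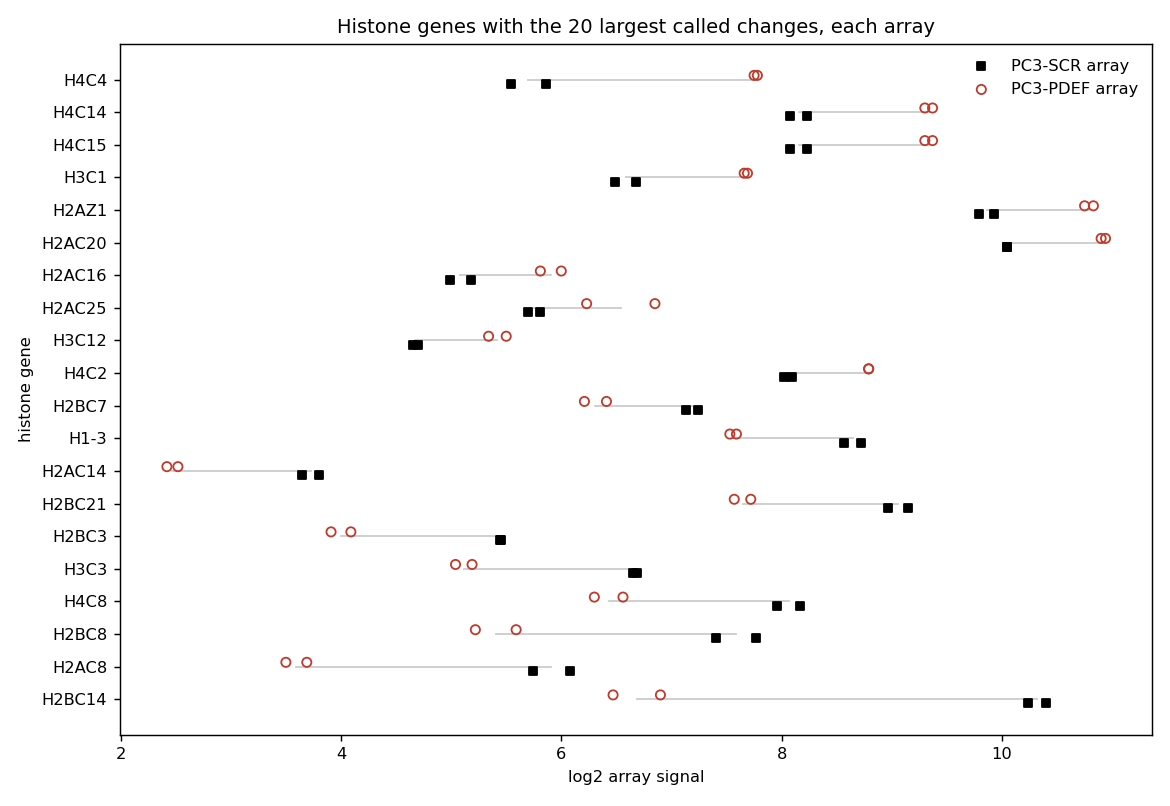
Log2 array signal (horizontal axis) of the 20 histone genes with the largest called changes whose arrays did not overlap (vertical axis), for the PC3-SCR arrays (squares) and the PC3-PDEF arrays (open circles). H2BC14 lies at 10.24 and 10.40 in PC3-SCR and at 6.47 and 6.90 in PC3-PDEF, while H4C4 lies at 5.54 and 5.86 against 7.75 and 7.78.

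The 58 replication-dependent genes divided by family. Among all genes, 26.7% rose and 24.0% fell. Of these 58, 23 rose, 14 fell and 21 were not called, with a median log2 fold change of 0.05. Without PC3-SCR replicate 2, 13 rose, without PC3-PDEF replicate 1, 9, and without PC3-PDEF replicate 2, 11. H2B had more genes lower than higher, and H2A, H3 and H4 more higher than lower. Of 16 H2B genes, 2 rose and 7 fell (median -0.34), and of the 42 genes of other families, 21 rose and 7 fell (median 0.30). The difference between the families was not tested. By chromosome, 6 of the 8 genes on chromosome 1 rose and 2 fell (median 0.56), while of 49 genes on chromosome 6, 17 rose and 12 fell (median -0.005). Those that rose on chromosome 1 include H4C14 and H4C15, which are 1 measurement. On chromosome 1, 3 rose without either PC3-SCR array or without PC3-PDEF replicate 1, 4 without PC3-PDEF replicate 2, and 1 fell with any array left out. On chromosome 6, 10 rose without PC3-SCR replicate 2, 6 without PC3-PDEF replicate 1 and 7 without PC3-PDEF replicate 2. H4C16 alone was on chromosome 12. The plot of fold changes by family shows how far the members of each spread.

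**Figure D2:**
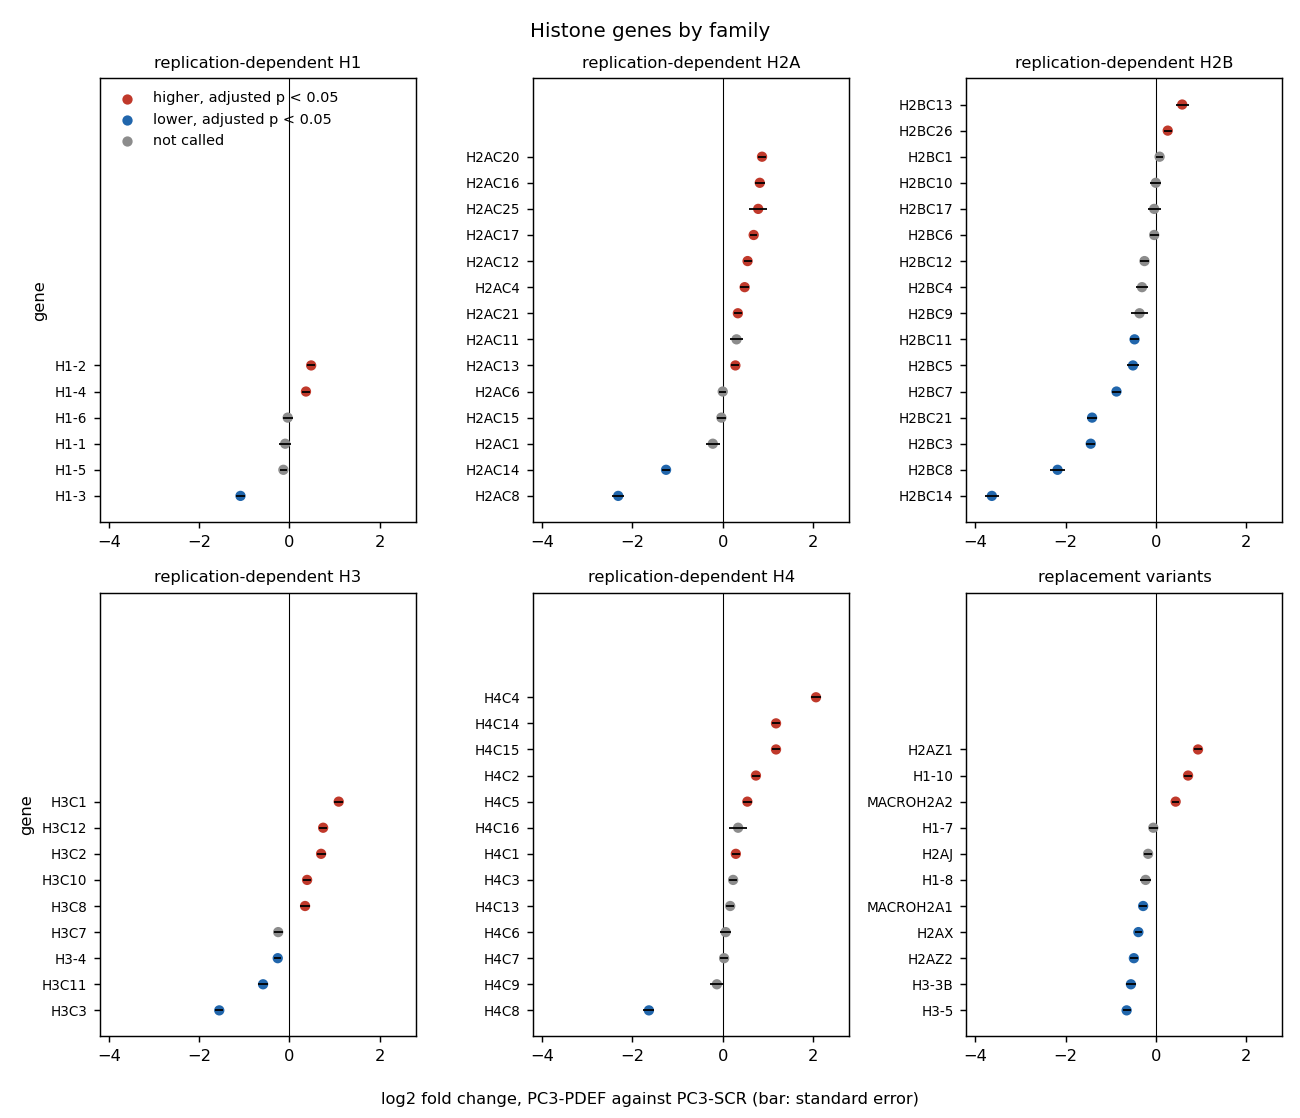
Log2 fold change of PC3-PDEF against PC3-SCR (horizontal axis) for each histone gene (vertical axis), 1 panel per family, with the standard error as a bar and colour for genes called higher, called lower or not called by limma. H2B reaches from -3.64 (H2BC14) to 0.58 (H2BC13), and H4 from -1.64 (H4C8) to 2.07 (H4C4).

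H2B, which pairs with H2A in the dimers on either side of the nucleosome core, held the largest change of any histone gene. H2BC14 had log2 signals of 10.40 and 10.24 in PC3-SCR and of 6.47 and 6.90 in PC3-PDEF. The groups were far apart, and the signal was above background in all 4 arrays. H2BC14 fell by 3.64 on the log2 scale, with a standard error of 0.15 (adjusted p = 1.04e-05 from limma), and was 12.4-fold lower. H2BC8 had 7.77 and 7.40 against 5.22 and 5.59, and fell by 2.18 (standard error 0.17, adjusted p = 0.000101 from limma). Its PC3-PDEF signals were within the background, so that the size of the fall is not exact. H2BC21, on chromosome 1, had 9.15 and 8.97 against 7.57 and 7.72, and fell by 1.42 (standard error 0.10, adjusted p = 8.09e-05 from limma). H2BC7 had 7.24 and 7.13 against 6.21 and 6.41, and fell by 0.88 (standard error 0.10, adjusted p = 0.000589 from limma). These arrays did not overlap in either gene, and all were above the gauge. H2BC3, near background in both groups, had 5.45 and 5.44 against 3.91 and 4.09 (log2 fold change -1.45, adjusted p = 5.19e-05 from limma).

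Smaller falls were those of H2BC5 (-0.51, adjusted p = 0.0232 from limma) and H2BC11 (-0.48, adjusted p = 0.0079 from limma). The 2 H2B genes that rose were H2BC13, by 0.58 (adjusted p = 0.015 from limma), and H2BC26, by 0.26 (adjusted p = 0.042 from limma). The PC3-SCR signals of H2BC13 were within the background. H2BC12 was among the brightest histone genes that were not called, with 9.11 and 9.19 in PC3-SCR and 8.81 and 8.98 in PC3-PDEF. Its arrays did not overlap, the log2 fold change was -0.26 and the 95% interval, not adjusted, ran from -0.49 to -0.02 (adjusted p = 0.0663 from limma). Under quantile normalization its adjusted p was 0.0394. Also not called were H2BC9 (-0.37), H2BC4 (-0.31), H2BC6, H2BC17, H2BC10 and H2BC1, the last 4 between -0.04 and 0.08 at signals within the background. H2BC26 was not called under either scaling, nor with any 1 array left out, and H2BC5 lost its call with each array left out. H2BC13 lost it without PC3-SCR replicate 2 and without either PC3-PDEF array, and H2BC11 without PC3-SCR replicate 1 and without either PC3-PDEF array.

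H2A genes mostly rose, in 8 of 14, while 2 fell and 4 were not called (median 0.32). For all genes the shares were 26.7% higher and 24.0% lower. H2AC20, a bright gene on chromosome 1, had 10.05 and 10.05 in PC3-SCR and 10.94 and 10.90 in PC3-PDEF. Replicates differed by far less than the groups, and the gene rose by 0.87 (standard error 0.080, adjusted p = 0.000211 from limma). H2AC16 had 5.18 and 4.99 against 6.0 and 5.81, a rise of 0.82 (adjusted p = 0.00108 from limma) from a signal within the background. H2AC25 had 5.70 and 5.81 against 6.85 and 6.23, and rose by 0.79 (standard error 0.20, adjusted p = 0.0157 from limma), with the widest spread between its PC3-PDEF arrays of these. Its PC3-SCR signals were also within the background. Further rises were those of H2AC17 (0.69) and H2AC12 (0.55), both within the background throughout, and of H2AC4 (0.49), H2AC21 (0.34) and H2AC13 (0.28). In the other direction, H2AC8 had 6.08 and 5.74 against 3.69 and 3.50, and fell by 2.32 (standard error 0.14, adjusted p = 3.48e-05 from limma). H2AC14 had 3.65 and 3.80 against 2.52 and 2.42, and fell by 1.26 (adjusted p = 9.08e-05 from limma). Most of these lower signals lay within the background, and for H2AC14 all did.

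H2AC6, the brightest uncalled H2A gene, had 8.53 and 8.49 in PC3-SCR and 8.50 and 8.52 in PC3-PDEF. Its arrays overlapped, the log2 fold change was 0.00, and the 95% interval ran from -0.19 to 0.19, so that larger changes in either direction lay outside it. H2AC11 (0.31), H2AC15 (-0.03) and H2AC1 (-0.22, within the background) were not called either. With each array left out in turn, 3 to 5 H2A genes were called higher, the 3 without PC3-PDEF replicate 1. H2AC25 lost its call without either PC3-SCR array and without PC3-PDEF replicate 1, H2AC16 without PC3-PDEF replicate 1, and H2AC13 and H2AC21 with any array left out. H2AC4 lost it without PC3-SCR replicate 2 and without either PC3-PDEF array, and H2AC12 without PC3-PDEF replicate 2. H2AC13 was not called under either scaling.

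H2A and H2B genes often lie head to head and share the sequence between their starts. Among the measured genes there were 9 such pairs, with 215 to 248 bases between the starts, of which 4 had both partners called in the same direction, 1 in opposite directions and the rest at most 1 partner called. H2BC8 and H2AC8 both fell (log2 fold changes of -2.18 and -2.32), and so did H2BC14 and H2AC14 (-3.64 and -1.26). The PC3-PDEF signals of H2BC8 and H2AC8 and all signals of H2AC14 were within the background. H2AC25 and H2BC26 both rose, by 0.79 and 0.26, as did H2BC13 and H2AC13, by 0.58 and 0.28. The PC3-SCR signals of H2AC25 and H2BC13 were within the background. The partners moved apart in H2BC21 and H2AC20, whose starts are 236 bases apart: the H2B gene fell by 1.42 and the H2A gene rose by 0.87. The octamer and the TATA sequence printed above for H2BC21 stand on its own side of that interval, and another TATA sequence, TTTATA as printed, stands near H2AC20. A probe set that H2BC21 shares with H2BC18 and H2BP1 fell by 1.62, but one that it shares with H2BC19P and H2BC20P rose by 0.40. In H2AC17 and H2BC17 the H2A gene rose (0.69) and the H2B gene differed by -0.04, and in H2BC11 and H2AC11 the H2B gene fell (-0.48) and the H2A gene differed by 0.31 without being called. Neither partner was called in H2BC4 and H2AC6 or in H2AC1 and H2BC1. Under either scaling or with any array left out, 2 pairs in place of 4 had both partners called in the same direction, since H2BC26 and H2AC13 were then not called. Among genes above the median level, 3 pairs had both partners tested, of which 0 had the same call and 1 had opposite calls. Under the trended and robust prior, 3 pairs had the same call and 2 had opposite calls. Differences between partners were not tested. An H3 gene, H3C7, lies head to head with H2BC9 at 979 bases, and neither was called (-0.25 and -0.37). The plot of the divergent pairs sets the partners side by side.

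**Figure D3:**
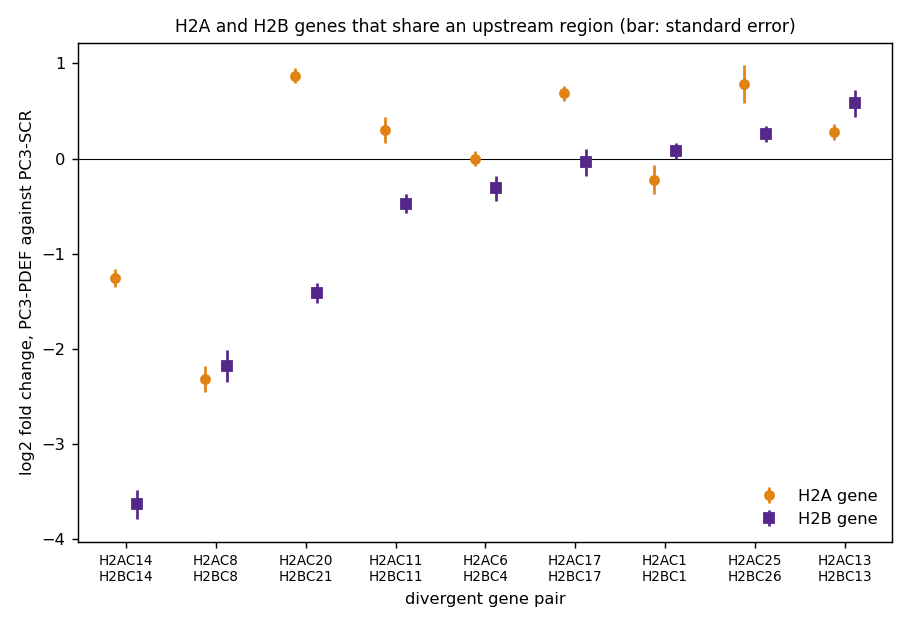
Log2 fold change of PC3-PDEF against PC3-SCR (vertical axis) of the H2A gene (circles) and the H2B gene (squares) of each divergent pair (horizontal axis), with standard errors as bars. Both genes lie below 0 in H2AC8 and H2BC8 and in H2AC14 and H2BC14, and on opposite sides of 0, at 0.87 and -1.42, in H2AC20 and H2BC21. The PC3-PDEF signals of H2AC8, H2BC8 and H2AC14 were within the background, as were the PC3-SCR signals of H2AC25 and H2BC13. Probe sets that H2BC21 shares with other symbols did not all move alike.

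H3, whose tail carries many of the known chromatin marks, had 5 of 9 genes higher, 3 lower and 1 not called (median 0.35). Shares of all genes were 26.7% higher and 24.0% lower. H3C1 had 6.68 and 6.49 in PC3-SCR and 7.69 and 7.66 in PC3-PDEF, and rose by 1.09 (standard error 0.096, adjusted p = 0.000177 from limma). H3C3 had 6.65 and 6.69 against 5.19 and 5.04, and fell by 1.56 (standard error 0.091, adjusted p = 3.40e-05 from limma). The groups did not overlap in either gene, though the PC3-PDEF signals of H3C3 were within the background. H3C12, within the background throughout, had 4.65 and 4.70 against 5.50 and 5.34 (log2 fold change 0.75, adjusted p = 0.000763 from limma). H3C2 (0.70), H3C10 (0.39) and H3C8 (0.35) rose, H3C11 (-0.59) and H3-4 (-0.26) fell, and H3C7 (-0.25) was not called. All signals of H3C8, H3C11 and H3-4 were within the background. Only 2 H3 genes were called higher and 1 lower when either PC3-PDEF array was left out. H3C8, H3C10 and H3-4 lost their calls with any array left out, and H3C2 and H3C11 without either PC3-PDEF array. Median centring ended the call of H3C8, and quantile normalization that of H3-4.

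H4, which forms the central tetramer with H3, had 6 of 13 genes higher, 1 lower and 6 not called (median 0.29). Those higher include H4C14 and H4C15, which are 1 measurement. Among all genes, 26.7% were higher and 24.0% lower. H4C4 had the largest measured rise among the histone genes. Its signals were 5.54 and 5.86 in PC3-SCR, within the background, and 7.78 and 7.75 in PC3-PDEF, above it. It rose by 2.07, with a standard error of 0.12 (adjusted p = 3.44e-05 from limma), or 4.18-fold on these signals, a size that is not exact. H4C14 and H4C15, neighbours on chromosome 1 with a shared value, had 8.23 and 8.08 against 9.37 and 9.30, and rose by 1.18 (standard error 0.092, adjusted p = 0.000106 from limma). H4C2 had 8.09 and 8.02 against 8.79 and 8.79, and rose by 0.74 (adjusted p = 0.000471 from limma). H4C8 was the exception, with 8.17 and 7.96 against 6.30 and 6.56, a fall of 1.64 (standard error 0.12, adjusted p = 9.28e-05 from limma). Both groups of H4C8 were above background and did not overlap. H4C3, the brightest of the uncalled histone genes, had 10.37 and 10.39 against 10.64 and 10.58, which is a log2 fold change of 0.23 with an adjusted p of 0.0555 from limma. Under the trended and robust prior its adjusted p was 0.00112. H4C5 (0.55) and H4C1 (0.29) rose, H4C1 from PC3-SCR signals within the background. H4C16, H4C13, H4C6, H4C7 and H4C9, all within the background, lay between -0.13 and 0.34 and were not called. H4C1 lost its call with any array left out and under median centring, and H4C5 without either PC3-PDEF array.

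Among the 6 replication-dependent linker histones, H1-3 had 8.72 and 8.57 in PC3-SCR and 7.59 and 7.53 in PC3-PDEF. All its arrays were above background, and it fell by 1.09 (standard error 0.092, adjusted p = 0.000147 from limma). H1-2 had 7.79 and 7.72 against 8.25 and 8.22, and rose by 0.48 (adjusted p = 0.00325 from limma). H1-4 had 11.77 and 11.64 against 12.07 and 12.07, and rose by 0.37 (adjusted p = 0.0135 from limma). Thus linker histones of one cluster moved in different directions. H1-5 (-0.14), H1-1 (-0.10) and the testis gene H1-6 (-0.04) were within the background and not called. H1-2 lost its call without PC3-PDEF replicate 1, and H1-4 without PC3-SCR replicate 2 and without either PC3-PDEF array.

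**Figure D4:**
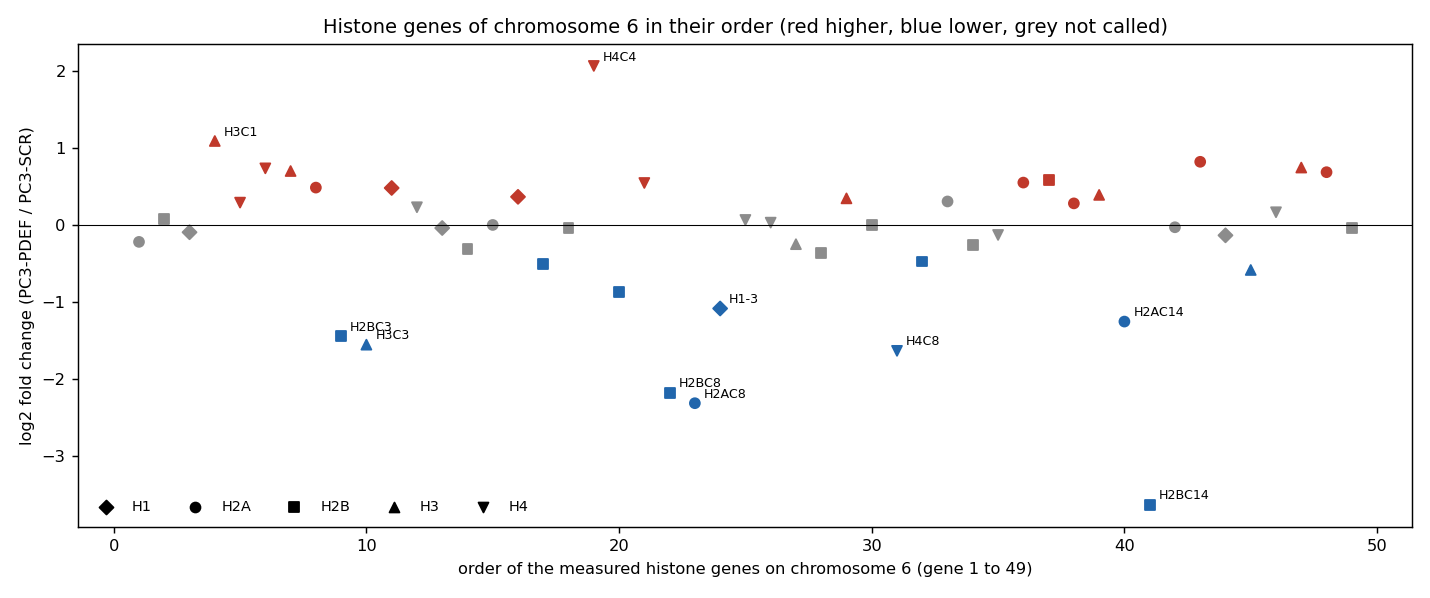
Log2 fold change of PC3-PDEF against PC3-SCR (vertical axis) of the 49 measured histone genes of chromosome 6 in their order along it (horizontal axis, not to distance), with a marker shape for each family and colour for genes called higher (red), lower (blue) or not called (grey). Genes called higher (17) and lower (12) are interspersed, and H2BC14 has the lowest value, -3.64.

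None of the 11 replacement histones was called with a change of at least 2-fold, against 14.7% of all genes, a difference that was not tested. In all, 3 rose, 5 fell and 3 were not called (median -0.23), while 26.7% of all genes rose and 24.0% fell. H2AZ1 and H2AZ2, which encode near-identical forms of H2A.Z, a variant placed at promoters, moved in opposite directions. H2AZ1 had 9.93 and 9.79 in PC3-SCR and 10.75 and 10.83 in PC3-PDEF, and rose by 0.93 (standard error 0.092, adjusted p = 0.000278 from limma). H2AZ2 had 9.66 and 9.55 against 9.13 and 9.10, and fell by 0.49 (standard error 0.086, adjusted p = 0.00354 from limma). The macroH2A genes, which encode large variants found on silent chromatin, also parted. MACROH2A2 had 8.45 and 8.47 against 8.88 and 8.91 and rose by 0.44 (adjusted p = 0.00442 from limma). MACROH2A1 had 9.85 and 9.81 against 9.51 and 9.58 and fell by 0.29 (adjusted p = 0.0281 from limma). The difference between the genes of each pair was not tested. H2AX, whose protein is phosphorylated at DNA breaks, had 8.46 and 8.39 against 8.06 and 8.01 and fell by 0.39 (adjusted p = 0.00830 from limma).

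H3.3 is the H3 form laid down outside of replication. H3-3B, which encodes it, had 10.82 and 10.86 in PC3-SCR and 10.16 and 10.41 in PC3-PDEF, and fell by 0.56 (standard error 0.11, adjusted p = 0.00545 from limma). H3-5, a retrocopy of H3-3B, had 10.10 and 10.19 against 9.54 and 9.45 and fell by 0.65 (adjusted p = 0.00108 from limma). Its sequence is close to that of H3-3B, so that the signals may not be separate. H1-10, a solitary linker histone, had 7.69 and 7.61 against 8.43 and 8.29 and rose by 0.71 (adjusted p = 0.000907 from limma). H2AJ, known for its rise in senescent cells, had 5.72 and 5.64 against 5.54 and 5.47, within the background in both groups (log2 fold change -0.18, adjusted p = 0.134 from limma). The germ cell linker histones H1-8 (-0.23, within the background) and H1-7 (-0.06) were not called. MACROH2A1 lost its call with any array left out, H3-3B without either PC3-SCR array, H2AZ2 without either PC3-PDEF array, H2AX without PC3-SCR replicate 1 and without either PC3-PDEF array, and MACROH2A2 without PC3-PDEF replicate 2. Without PC3-SCR replicate 1 or either PC3-PDEF array, 2 replacement histones were called lower, and without PC3-SCR replicate 2, 3.

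Histone genes are near-identical copies within a family, so probes may bind transcripts of several, and probe sets that carry several symbols show where this matters. Of 27 such probe sets with a histone symbol, 23 had values of their own, and 13 of these were higher, 2 lower and 8 not called by limma over all 33297 probe sets. Shares of all probe sets called in that fit are not given here, so these counts stand without a comparison. The 4 probe sets of H3-3A, which encodes H3.3 as H3-3B does, and its pseudogene H3P6 rose by 0.45 to 0.47 (adjusted p = 0.0139 to 0.0270 from limma), whereas H3-3B fell. Those of the H3 genes H3C13, H3C14 and H3C15 rose by 0.68 to 0.75. A second probe set of H4C14 and H4C15 rose by 1.41 (adjusted p = 0.00204 from limma), as the first did, and a probe set of H2AC18, H2AC19, H2AC20 and H2AC21 rose by 0.52 (adjusted p = 0.0132 from limma), as the single probe sets of H2AC20 and H2AC21 did. For H2B, probe sets that share a symbol did not all move alike. One that matches H2BC5, H2BC12, H2BC12L and H2BC17 had 10.62 and 10.42 in PC3-SCR and 11.24 and 11.31 in PC3-PDEF and rose by 0.76 (adjusted p = 0.00636 from limma), although the single probe set of H2BC5 fell and that of H2BC12 had a log2 fold change of -0.26. A probe set of H2BC18, H2BP1 and H2BC21 fell by 1.62 (adjusted p = 0.000585 from limma), as the single H2BC21 probe set did, but one of H2BC21 with the pseudogenes H2BC19P and H2BC20P rose by 0.40 (adjusted p = 0.0301 from limma). Of 2 probe sets of H2BC18 and H2BP1, one fell by 1.80 (adjusted p = 0.000488 from limma) and the other differed by 0.26 (adjusted p = 0.0941 from limma). Each of these also matches other genes or pseudogenes, whose part in the signal was not tested. The remaining H2B probe set, of H2BC18 and FCGR1BP, was not called (-0.30).

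Probe sets shared between families rose for H2BC15 and H2AC15, by 0.64 (adjusted p = 0.00577 from limma), and for H3C10 and H2AC13, by 0.32 (adjusted p = 0.0405 from limma). The single probe set of H2AC15 differed by -0.03 and was not called. Those of H3C4 and H2AC7 (0.12), of H3C6 and H3C11 (0.05) and the 2 of H4C11 and H4C12 (0.04 and 0.07) were not called. The H2A.B genes H2AB1, H2AB2 and H2AB3, of a short variant known from testis, shared 2 distinct probe sets that were not called either (-0.08 and -0.09). The sources used here do not give the primers used for labelling, and whether these favour mRNAs with a poly(A) tail was not tested.

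The genes that make histone mRNA were examined beside their products. Of 24 listed genes of histone mRNA transcription and processing, 22 were measured. Of these, 13 rose, 2 fell and 7 were not called (median 0.43), with 7 rising at least 2-fold. Among all genes, 26.7% rose, 8.67% of all by at least 2-fold, and 24.0% fell. CCNE2, a cyclin whose kinase starts histone transcription, had 6.12 and 6.03 in PC3-SCR and 8.06 and 8.45 in PC3-PDEF, and rose by 2.18 (adjusted p = 4.68e-05 from limma). CASP8AP2, also known as FLASH, which acts in processing of the 3′ end, had 6.48 and 6.16 against 8.12 and 8.31, and rose by 1.90 (adjusted p = 6.67e-05 from limma). SLBP, the protein that binds the histone stem-loop, had 7.55 and 7.66 against 9.13 and 9.07, and rose by 1.50 (standard error 0.087, adjusted p = 3.37e-05 from limma). The groups did not overlap for any of these. ERI1, an exonuclease that trims and degrades histone mRNA, rose by 1.43 (adjusted p = 0.00013 from limma). NPAT, the activator of the histone clusters, chosen after its values were seen, rose by 0.66 (adjusted p = 0.00139 from limma). HINFP, which activates H4 genes, differed by -0.05 (adjusted p = 0.684 from limma). The 2 that fell, also named after their values were seen, were MBLAC1 (-0.31) and NCBP2 (-0.35), and neither was called with any array left out. Without PC3-PDEF replicate 2, 8 genes of this list were called higher.

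Histone chaperones, which carry histones to the nucleus and place them on DNA, mostly rose. All 27 listed genes were measured, and 19 rose, 3 fell and 5 were not called (median 0.71). The shares of all genes were 26.7% higher and 24.0% lower. CHAF1A, the large subunit of the chaperone that deposits H3 and H4 behind the replication fork, had 7.25 and 7.44 in PC3-SCR and 9.09 and 9.08 in PC3-PDEF, and rose by 1.74 (adjusted p = 2.86e-05 from limma). HIRA, of the complex that deposits H3.3, had 6.80 and 6.73 against 8.10 and 7.94, and rose by 1.26 (adjusted p = 8.76e-05 from limma). NASP, which holds the reserve of soluble H3 and H4, rose by 1.49 (adjusted p = 2.83e-05 from limma), and SRCAP, the motor of a complex that inserts H2A.Z, rose by 1.29 (adjusted p = 7.39e-05 from limma). The 3 that fell, named after their values were seen, were DNAJC9 (-1.05), HJURP (-0.71), which deposits the centromeric H3 variant, and IPO4 (-0.33).

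Most S phase genes rose, and the difference between this list and the histone genes was not tested. Of 32 listed genes, 31 were measured, and 27 rose, 20 of them at least 2-fold, 1 fell and 3 were not called (median 1.31). Among all genes, 26.7% rose, 8.67% of all by at least 2-fold, and 24.0% fell. PCNA, the sliding clamp of DNA polymerase, had 8.51 and 8.35 in PC3-SCR and 10.53 and 10.62 in PC3-PDEF, and rose by 2.15 (adjusted p = 1.29e-05 from limma). MCM2, of the replicative helicase, had 7.73 and 7.85 against 9.96 and 9.79, and rose by 2.09 (adjusted p = 1.65e-05 from limma). GINS2, another helicase component, rose by 2.33 (adjusted p = 9.02e-06 from limma), and CDT1, which loads the helicase, by 2.02 (adjusted p = 1.07e-05 from limma). TYMS, chosen after its values were seen, fell by 0.38 (adjusted p = 0.0106 from limma), and it lost its call without either PC3-SCR array and without PC3-PDEF replicate 2. LIG1, RRM2 and TK1 were not called. The part of the S phase genes in the histone values was not tested. In the plot of these groups, the histone genes lie on both sides of 0 and the S phase genes mostly above it.

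**Figure D5:**
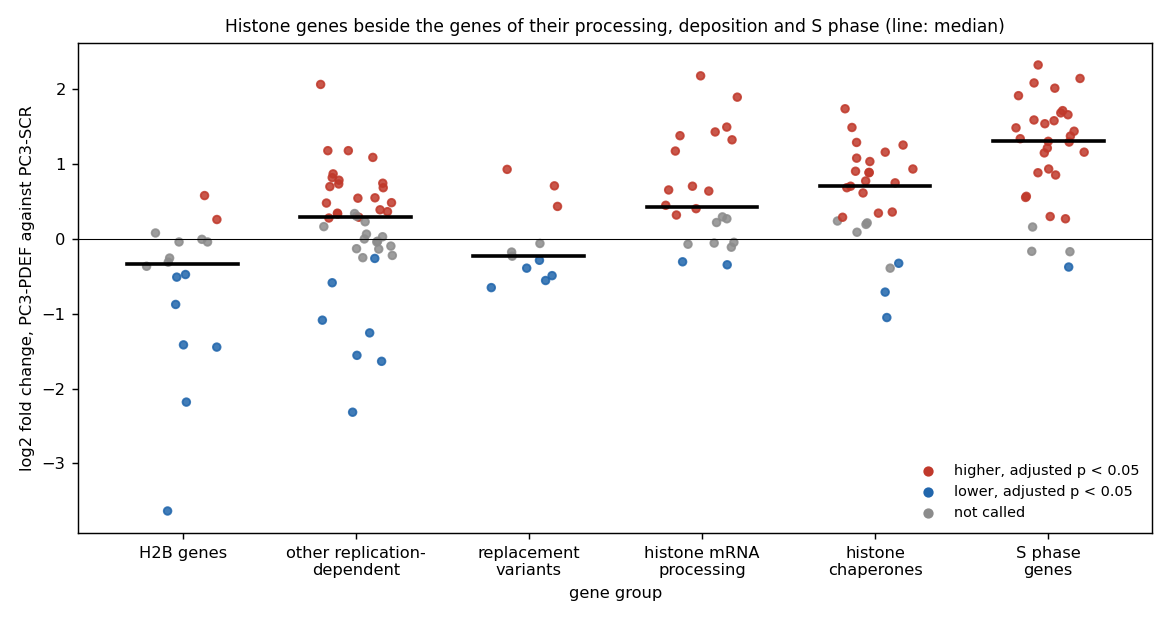
Log2 fold change of PC3-PDEF against PC3-SCR (vertical axis) of each gene (point) of the H2B, other replication-dependent and replacement histones and of the lists of histone mRNA processing, histone chaperone and S phase genes (horizontal axis), with a line at the median and colour for the call by limma. The medians are -0.34 for H2B genes, 0.30 for the other replication-dependent histones, -0.23 for replacement histones, and 0.43, 0.71 and 1.31 for the 3 lists.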

How the data were processed

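Total RNA of 4 samples was hybridized to Affymetrix human gene arrays, which the authors processed in Transcriptome Analysis Console. The sources used here do not give its version, nor how background was corrected and arrays were normalized. The deposited values are log2 signals, with the log base inferred from their range. Of 33297 probe sets, 19460 carried 1 gene symbol, 1754 several and 12083 none listed here. For each of 18417 genes the probe set of highest mean signal was kept, a choice that affected 769 genes and no histone gene. The arrays had medians of 5.41 to 5.46 and were not normalized further. The number of arrays, 2 in each group, limits the precision.

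PC3-PDEF was compared with PC3-SCR in limma 3.58.1 (R 4.3.3; 2 residual and 4.23 prior degrees of freedom) with Benjamini-Hochberg adjustment over all genes, and genes with an adjusted p under 0.05 were called. The procedure was tested on simulated data. The histone members and the lists of histone mRNA processing, histone chaperone, S phase and stromal, endothelial and leukocyte marker genes were chosen with earlier results of these data known, and the lists were written from general knowledge. Genes given in full are the 20 called histone genes with the largest changes and no overlap of arrays, every replacement histone, the 3 brightest uncalled histone genes, and the 4 called genes of each list with the largest changes. The other members are named to account for each. Names with a histone prefix that are not protein-coding histones (H1-10-AS1, H1-9P, H2BC19P), and HRH1, SETDB1 and SUV39H1, were left out. Alternatives were quantile normalization, median centring, genes above the median level, the mean of all probe sets of a gene, a trended and robust prior, a replicate block, single probe sets and each array left out in turn.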

Additional observations from a re-analysis of the deposited data

How the results depend on the processing

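No called histone gene reversed under any of 10 alternatives at the gene level, and 21 of the 45 kept their call in every one that tested them (15 were tested in all 10), while 40 kept it under both quantile normalization and median centring. Histone genes called higher and lower numbered 25 and 20 under quantile normalization and 22 and 23 under median centring. The share higher among called histone genes was 57.8% in the main fit, 55.6% under quantile normalization and 48.9% under median centring. Among all called genes it was 52.7%, 53.1% and 44.5%. Over single probe sets whose symbols are all histones, 32 were higher and 16 lower, without the share of all probe sets beside them. With 1 array left out, fewer of all genes were called than with all arrays, and counts ranged as follows. Histone genes numbered 12 to 19 higher and 12 to 15 lower, replication-dependent genes 9 to 16 higher and 10 to 12 lower, and replacement genes 2 to 3 higher and 2 to 3 lower. Histone mRNA transcription and processing genes numbered 8 to 12 higher and 0 to 0 lower, chaperone genes 15 to 16 higher and 2 to 4 lower, and S phase genes 25 to 25 higher and 0 to 1 lower. An array left alone in its group was assumed to vary like the other group. Processing genes called lower numbered 1 among genes above the median level and under the trended and robust prior, and S phase genes called lower numbered 2 under that prior. The causes were not tested. Of the genes not called, H1-7 differed by -0.15 to 0.03 and H2AC6 by -0.02 to 0.02 with 1 array left out, and H2AC6 by -0.0662 under quantile normalization and -0.07 under median centring. Signals near background limit the size of changes for 24 histone genes in both groups and for 7 more in 1 group.

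The groups share replicate numbers, and over all genes the deviations of same-numbered arrays had a correlation of 0.022. That gives no sign of a replicate effect shared by most genes. A single value over all genes cannot show an effect in some of them. Nor can it tell whether same-numbered arrays were handled together. With the replicate block, 21 histone genes were higher and 18 lower, 1 processing gene was lower, and 7974 of all genes were called in place of 9337. The count over probe sets with at least 1 histone symbol, 37 higher and 18 lower, and the counts by family, chromosome and pair under the alternatives were added after the data were seen. That probe set count, too, stands without the share of all probe sets called.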
